A study of Saccharomyces cerevisiae BY4741 with 16 samples.

Results

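The early step of H3K36me3 loss was followed gene by gene, as the signal at 20 min after rapamycin against that at 0 min, the start of the time course. Every row of the deposited gene table with all 8 values was taken, which gave 5218 genes, and these are all the genes of the series that carry values. A log2 change of 0 means equal signal at both times and a change of -1 means that the signal at 20 min was 2-fold lower. Changes are described for the 4861 genes whose mean H3K36me3 over the 4 times of the course reached 0.219, which is 25% of the median of such means. The other 357 genes are too weakly marked for a ratio to be read with any firmness, and they had a median change of -0.27 with an interquartile range of 0.75, against 0.47 for the genes kept.

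Trimethylation of lysine 36 of histone H3 is placed by the methyltransferase Set2, which travels with elongating RNA polymerase II (RNAPII) by binding its phosphorylated C-terminal domain (CTD). The mark therefore lies over the bodies of transcribed genes, where the Rpd3S deacetylase complex and other readers use it to keep chromatin closed behind the polymerase. It is removed by demethylases such as Rph1, by exchange of histones and by dilution as cells divide. H3K4me3, the companion mark in this series, is placed near gene starts by Set1 in the COMPASS complex.

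Chromatin immunoprecipitation followed by sequencing was carried out on log-phase budding yeast, *Saccharomyces cerevisiae*, over a time course of anchoring RNAPII away from the nucleus. Rapamycin there joins a nuclear protein of choice to a ribosomal protein fused to FKBP12, which carries it out to the cytoplasm. The groups set against each other are the immunoprecipitated H3K36me3 samples taken 20 min and 0 min after 1 ug/mL rapamycin, with 1 library each. The H3K36me3 samples at 40 and 60 min and the H3K4me3 samples at 20 and 0 min, also with 1 library each, are used beside them. All samples share the strain BY4741 Anchor-Away, of mating type MATa. The genotype label lists fpr1D and tor1D1, alleles used to keep rapamycin from its usual targets, the marker alleles his3D1, leu2D0 and ura3D0, and the anchor RPL13-2xFKBP12-NATMX6. The signal at *FPR1* is given further on, and whether that gene is absent was not tested. No tagged subunit of the polymerase is given in the genotype label, and that RNAPII was depleted is known from the design text. No sample without rapamycin at 20 min is analysed here, so time in rapamycin and loss of RNAPII cannot be told apart. Because each time is a single library, library and time cannot be told apart either, and no p-value or standard error is given. In a bulk sample, fewer cells that carry the mark at a gene and less of it in each cell cannot be told apart.

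The deposited values are a linear signal per gene whose depth is unknown. The H3K36me3 signal summed over the 5218 genes to 4822 at 20 min and 6655 at 0 min, so that the later library held 72.5% of the earlier total. The median gene stood at 0.824 at 20 min and at 1.08 at 0 min, and the 261 genes with the lowest mean level had medians of 0.125 at 20 min and 0.150 at 0 min. Whether the spike-in of fission yeast cells was used to set this scale is not stated in the sources used here. Scaling both libraries to equal totals added 0.46 to the change of the median gene, and holding the lowest 5% of genes at their 0 min median added 0.26. Directions against 0 min are therefore as deposited, and gene groups are read against the median gene, which such a scaling leaves nearly as it was.

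As deposited, H3K36me3 was lower at 20 min than at 0 min at most genes, by an amount that varied from gene to gene. Of the genes past the filter, 52.7% had a change within 0.25 of the median. The median change was -0.41, or 75.1% of the 0 min level, with quartiles of -0.65 and -0.19. As deposited 88.4% of genes lay below their 0 min level and 11.6% above it, while 5.76%, or 280 genes, were lower by 2-fold or more. Of the genes past the filter only *SPO16*, a meiosis gene with 0.310 at 20 min and 0.112 at 0 min, was higher by 2-fold or more. Its mean level of 0.251 passed the filter of 0.219 narrowly and only through the later times. Of the 357 genes below the filter, 4 were higher by 2-fold or more. With the lowest 5% of genes held, 68% of genes lay below their 0 min level and 32% above it. With equal totals 44.2% lay below, since such a scaling sets the average gene to no change. The order of genes changed little, with a Spearman's rho of 0.922 between the levels at the 2 times across the 4861 genes, which share no library but are not independent replicates.

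**Figure D1:**
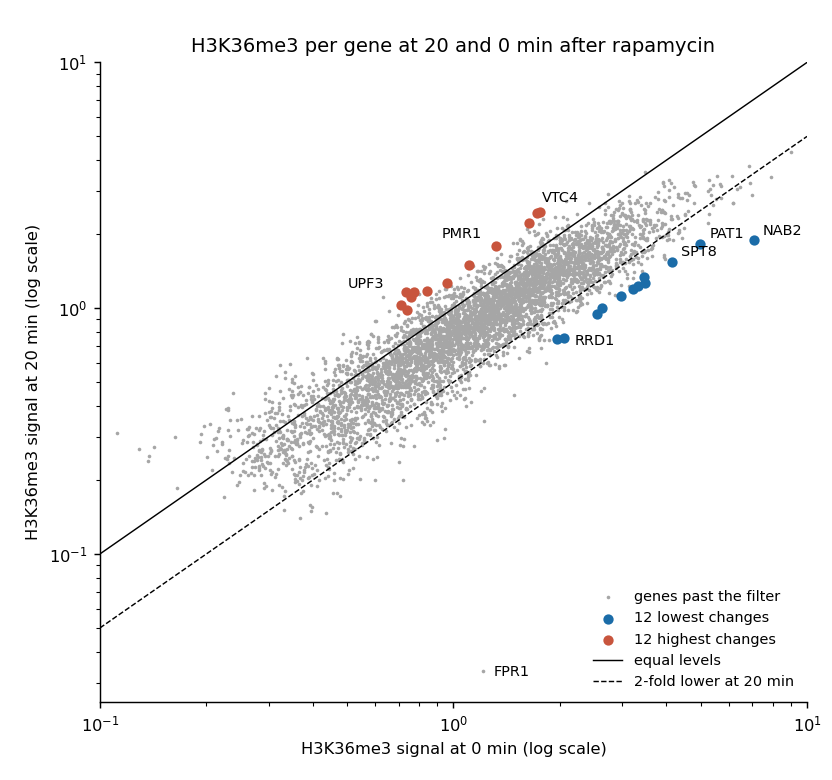
Each grey point is 1 of 4861 genes, with its H3K36me3 signal at 0 min on the x axis and at 20 min on the y axis, both on log scales. Most points lie between the solid line of equal levels and the dashed line of a 2-fold lower level; blue and red points are the 12 lowest and 12 highest changes among the more strongly marked genes (mean level not under the median), and *FPR1* stands apart at the bottom.

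Of the genes whose mean level was not under the median, the 12 with the lowest early change had levels at 20 min that were 26.7% to 38.6% of those at 0 min. *NAB2*, whose product binds poly(A) tails in the nucleus and helps to export mRNA (chromosome VII, 278946 to 280523 in R64), had an H3K36me3 level of 1.89 at 20 min and 7.08 at 0 min, a change of -1.90. *PAT1*, which encodes an activator of mRNA decapping (chromosome III, 250238 to 252628), had 1.83 at 20 min and 5.00 at 0 min, a change of -1.45. *SPT8*, which encodes a subunit of the SAGA coactivator, had 1.54 at 20 min and 4.16 at 0 min, a change of -1.42. All 3 were among the most strongly marked genes at the start, in the top 1% at 0 min, and at percentiles 93.4, 92.2 and 85.5 at 20 min. The 0 min level is the denominator of the change that picked these genes, so a high rank there is favoured by the choice.

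The others of these 12 were less strongly marked and have varied roles. *UTH1*, which encodes a cell wall protein of the SUN family, had 1.23 at 20 min and 3.32 at 0 min, a change of -1.43. *SEC8* of the exocyst, which tethers secretory vesicles, had 0.945 at 20 min and 2.55 at 0 min, a change of -1.42. *RAD54*, which encodes a motor protein of homologous recombination, had 1.00 at 20 min and 2.63 at 0 min, a change of -1.38. *SIP1*, which encodes a β subunit of the Snf1 kinase, stood at -1.40, *NSL1* of the kinetochore at -1.39 and *RRD1*, which encodes an activator of protein phosphatase 2A, at -1.42. *GFD2*, *VHS2* and YDR133C stood at -1.45, -1.41 and -1.37, and YDR133C had no match in the R64 gene table, so an overlap with another gene was not checked there. The next gene above this set was *ATS1* at -1.34, so the set has no sharp edge.

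At the other end, the 12 genes with the highest early change had 132.8% to 159.3% of their 0 min level. *UPF3*, which encodes a factor of nonsense-mediated mRNA decay (chromosome VII, 634304 to 635467), had 1.17 at 20 min and 0.734 at 0 min, a change of 0.66. *YBT1*, which encodes a vacuolar transporter of bile acids, had 1.17 at 20 min and 0.772 at 0 min, a change of 0.59. *VTC4*, which encodes the polyphosphate polymerase of the vacuole, had 2.43 at 20 min and 1.72 at 0 min, a change of 0.50. These genes were of middling level at 0 min, and *VTC4* reached percentile 98.2 of all genes at 20 min. Choice by a high change likewise favours a lower rank at 0 min than at 20 min.

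*RPO26*, which encodes a subunit shared by RNA polymerases I, II and III, had 2.45 at 20 min and 1.76 at 0 min, a change of 0.47. *SES1*, the seryl-tRNA synthetase gene, had 2.21 at 20 min and 1.64 at 0 min, a change of 0.43. *PMR1*, which encodes the Golgi calcium pump, stood at 0.44, *PEX10* of the peroxisome at 0.48, *RVS161* of endocytosis at 0.43, the daughter cell gene *DSE1* at 0.54, and *GTS1* and YMR086C-A at 0.41 and 0.53. *SER3*, a serine synthesis gene, was at 0.41, with 0.985 at 20 min and 0.739 at 0 min. *PMR1* and *SER3* overlap another annotated gene, and YMR086C-A had no match in the R64 table. The first gene below this set was *DBP7* of ribosome assembly at 0.39. None of the 24 genes at either end changed sign under the 6 alternatives of pseudocount, filter and scale. That outcome was fixed by the choice of genes with large changes. Both scale alternatives raise changes, by about 0.46 and 0.26, and the pseudocount and filter cannot turn a sign. The alternative without overlapping genes leaves out 4 of the 24 genes, *PMR1*, *SER3*, YDR133C and YMR086C-A, and the other 20 kept their values there.

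The 2 ends differed in their course after 20 min. Of the 12 lowest genes, 3 had less H3K36me3 at 40 min than at 20 min, and all 12 remained below their 0 min level at 40 and 60 min. Of the 12 highest genes, 10 had less at 40 min than at 20 min, 2 were below their 0 min level at 40 min and 6 at 60 min. Of all genes past the filter, 41.8% had less at 40 min than at 20 min, 84.3% were below their 0 min level at 40 min and 95.2% at 60 min. *PMR1* had 1.32, 1.80, 1.16 and 0.892 at 0, 20, 40 and 60 min, and *RPO26* had 1.76, 2.45, 1.58 and 1.22. In these genes the 20 min library held the highest level of the course. *SER3* was unlike them, with 0.739, 0.985, 1.98 and 2.07. *VHS2* had 3.21, 1.20, 1.75 and 1.74, so its lowest level was at 20 min. Genes were chosen here by the 20 min library, which a comparison with 40 min shares, so these counts describe the libraries and are no separate evidence of a course.

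**Figure D2:**
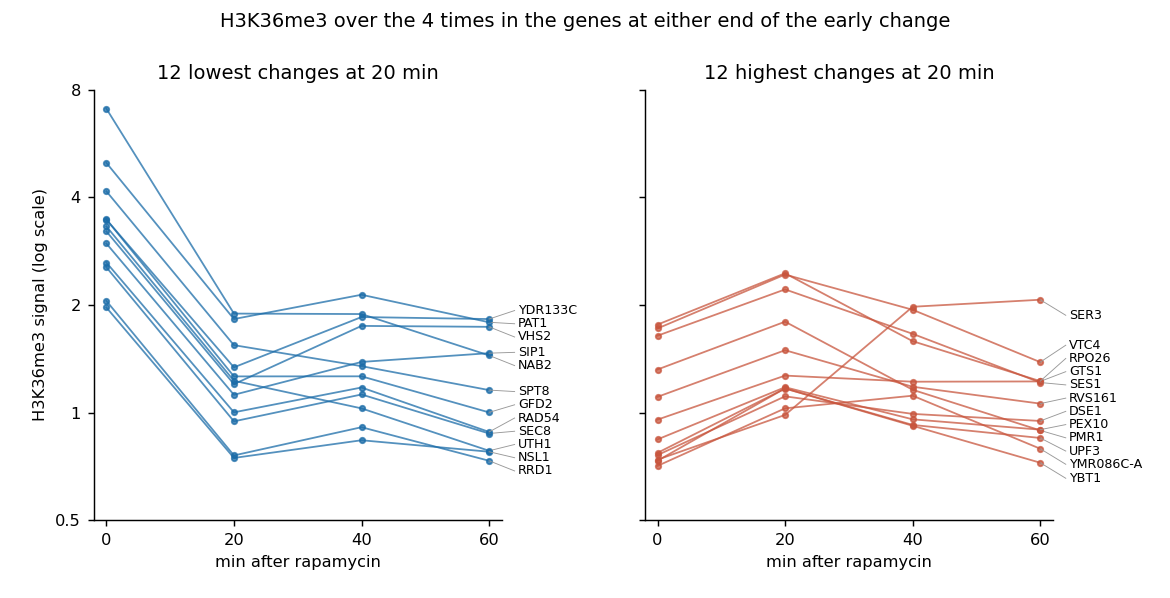
H3K36me3 signal on a log scale at 0, 20, 40 and 60 min after rapamycin for the 12 genes with the lowest (left) and the 12 with the highest (right) change at 20 min among the more strongly marked genes, with 1 line per gene. On the left most of the difference lies between 0 and 20 min; on the right most lines peak at 20 min, and *SER3* is higher at each later time.

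Over all genes the later step ran at a similar size whatever the early step had been. The change from 40 to 60 min uses neither library of the early change. Its median was -0.28 in the 280 genes that were lower by 2-fold or more at 20 min, -0.27 in the 4015 genes that were lower by less, and -0.30 in the 566 genes that were higher. The rho of the early change with this later one was -0.044 across 4861 genes. Median levels of the 280 genes were 1.65, 0.749, 0.815 and 0.655 at 0, 20, 40 and 60 min, and those of the 566 genes were 0.691, 0.784, 0.727 and 0.572. The level at 0 min also enters the rule that sorts these genes. Of the genes that were higher at 20 min, 74.0% were below their 0 min level at 60 min, as were 95.2% of all genes as deposited.

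*FPR1*, labelled as deleted, had the lowest early change of all genes past the filter. Its H3K36me3 signal was 0.0335 at 20 min and 1.21 at 0 min, a change of -4.79, which became -3.22 with a pseudocount of 10% in place of 1% of the median 0 min level. The level of 1.21 at 0 min was at percentile 56.0 of all genes and that at 20 min at percentile 0.0958. The values at 40 and 60 min were 0.240 and 0.185. H3K4me3 at *FPR1* was 2.26, 1.34, 3.86 and 1.04 at 0, 20, 40 and 60 min, so that this mark also had signal there at every time. What the signal at this locus holds was not tested. *HIS3*, labelled with the mutant allele his3D1, had 1.28 at 20 min and 2.73 at 0 min, a change of -1.08. *TOR1* had 0.956 at 20 min and 1.42 at 0 min, a change of -0.57, and the 2 genes that the anchor label could mean, *RPL13A* and *RPL13B*, stood at -0.69 and -0.74. The near-identical copies of *RPL13* can share reads, so their values are uncertain. *ACT1*, the actin gene, had 1.40 at 20 min and 2.27 at 0 min, a change of -0.69.

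The genes that place, read and remove H3K36 methylation differed in their early change, with an interquartile range of 0.42 beside 0.47 over all genes. *SET2*, which encodes the methyltransferase itself, had 1.35 at 20 min and 2.79 at 0 min, a change of -1.04, the lowest of 15 members. *SIN3*, the scaffold of the Rpd3 deacetylase complexes, had 2.17 at 20 min and 3.50 at 0 min, a change of -0.68. *RPH1*, which encodes a demethylase of H3K36, had 1.15 at 20 min and 0.829 at 0 min, a change of 0.46. The median of the list was -0.38, or 0.04 above the median gene, with 12 members below their 0 min level and 3 above it, against 11.6% of all genes above. The 2 other members above 0 min were the Isw1b subunit gene *IOC4* at 0.37 and the Rpd3S subunit gene *RCO1*, which overlaps another gene, at 0.42.

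The list of kinases and phosphatases of the RNAPII C-terminal domain, whose kinases Bur1 and Ctk1 help Set2 to bind the polymerase, lay above the median gene. Its 13 members had a median of -0.10, which is 0.31 above that of all genes, and 5 were above their 0 min level against 11.6% of all genes. *SGV1*, which encodes Bur1, had 1.50 at 20 min and 1.36 at 0 min, a change of 0.14. *FCP1*, which encodes a phosphatase of the domain, had 1.72 at 20 min and 2.77 at 0 min, a change of -0.68, and the kinase gene *CTK1* had 1.46 at 20 min and 2.27 at 0 min, a change of -0.63. Between them lay the cyclin gene *BUR2* at -0.10, the TFIIH kinase gene *KIN28* at -0.04 and the phosphatase gene *RTR1* at 0.05. The median changes of the list against 0 min were -0.10, -0.13 and -0.64 at 20, 40 and 60 min, beside -0.41, -0.36 and -0.65 for all genes, and these comparisons share the 0 min library.

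COMPASS, the H3K4 methyltransferase complex, had members close to each other apart from *SWD3*, with an interquartile range of 0.17 beside 0.35 for the list of CTD kinases and phosphatases. *SET1*, its catalytic subunit gene, had 1.43 at 20 min and 1.40 at 0 min, a change of 0.04. *BRE2* had 0.806 at 20 min and 0.762 at 0 min, a change of 0.08, and *SWD3* had 0.607 at 20 min and 1.11 at 0 min, a change of -0.86. The other members past the filter were *SPP1* at 0.01, *SHG1* at -0.0039, *SDC1* at -0.12 and *SWD1* at -0.16, so that 6 of 7 stood above the median gene and 3 of 7 above their 0 min level, against 11.6% of all genes. The H3K4 demethylase gene *JHD2* had a level under the filter, with 0.147 at 20 min and 0.168 at 0 min, and *SWD2* is not analysed here. The list's median was -0.0039, or 0.41 above that of all genes, and the median 0 min level of its genes was 0.762, beside 1.16 for all genes past the filter. Its medians at 40 and 60 min were -0.13 and -0.25.

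Genes for the separation of daughter from mother cells were also above the median gene. *SCW11*, a glucanase gene, had 1.87 at 20 min and 1.86 at 0 min, a change of 0.02. *CTS1*, the chitinase gene, had 1.62 at 20 min and 1.57 at 0 min, a change of 0.05, and *DSE1* had 1.11 at 20 min and 0.761 at 0 min. *DSE4*, another glucanase gene, had 0.719 at 20 min and 1.32 at 0 min, a change of -0.86, and was the lowest of the list. The median of the 11 members was 0.01, or 0.42 above that of all genes, with 7 members above 0 min, against 11.6% of all genes, and a median 0 min level of 1.58. At 40 and 60 min the median stood at 0.14 and -0.11.

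Among the other parts of the transcription machinery, the spread within a list lay on either side of that over all genes, 0.47. Interquartile ranges were 0.59 for RNAPII subunit genes and 0.51 for termination and 3' end processing factors. They were 0.40 for Paf1 complex and elongation factors, 0.37 for Mediator, 0.36 for SAGA and TFIID and 0.31 for H2B ubiquitination. Of the 12 RNAPII subunit genes, 9 were below and 3 above their 0 min level, against 88.4% below and 11.6% above among all genes, with a median of -0.48. *RPO21*, which encodes the largest subunit, had 2.72 at 20 min and 3.97 at 0 min, a change of -0.54, while *RPB2*, which encodes the second largest, had 2.68 at both times. *RPB9* stood at -1.02 and *RPB10* at 0.57, with 0.721 at 20 min and 0.483 at 0 min. The Paf1 complex and elongation factor genes had a median of -0.33, with 12 of 13 members below 0 min as deposited and 8 with the lowest 5% of genes held, near the 88.4% and 68% of all genes. They ran from the elongation factor gene *DST1* at -0.86 to the histone chaperone gene *SPT6* at 0.15. *SPT5*, which encodes a processivity factor, had 1.66 at 20 min and 2.81 at 0 min, a change of -0.76.

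H2B ubiquitination, which precedes H3K4 methylation, was represented by 8 genes with a median of -0.33. *LGE1*, which encodes a partner of the ubiquitin ligase Bre1, had 1.62 at 20 min and 3.93 at 0 min, a change of -1.27, but *BRE1* itself had 2.06 at 20 min and 1.87 at 0 min, a change of 0.14. In the list of termination and 3' end processing factors, *NAB2* and *HRP1* marked the ends. *HRP1*, which encodes a cleavage factor, had 1.90 at 20 min and 1.55 at 0 min, a change of 0.30, and the median of 24 members was -0.33. Mediator genes had a median of -0.30, from *SRB2* at -1.51 to *NUT2* at 0.25, and SAGA and TFIID genes one of -0.50, from *SPT8* to *TAF7* at 0.0022. Histone genes had a median of -0.34, from the H2A variant gene *HTZ1* at -0.80 to *HTA1* at 0.70, and their near-identical copies can share reads.

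Of the lists below the median gene, the proteasome was the largest with a shift beyond 0.1. *PRE6*, which encodes a subunit of the core particle, had 2.31 at 20 min and 4.16 at 0 min, a change of -0.85. *PRE8* of the core had 1.20 at 20 min and 2.53 at 0 min, a change of -1.07, and *RPN9* of the regulatory particle had 1.21 at 20 min and 1.07 at 0 min, a change of 0.17. The median of the 33 members was -0.55, or -0.13 relative to all genes, and 32 were below 0 min against 88.4% of all genes. Their median 0 min level was 2.20, beside 1.16 for all genes past the filter. The highest 20% of genes by 0 min level, from 1.95 up, had a median change of -0.61, and the next 20% one of -0.43. The list was not compared with genes matched for starting level. The 0 min library that ranks these genes is also the denominator of the change. Ergosterol synthesis genes had a median of -0.52 over 21 members, with *ERG8* at -1.35, *ERG9* at -0.54 and *MVD1* at 0.17.

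Ribosomal protein genes, among the most transcribed genes of the cell, lay close to the median gene in the early step. The 79 genes of the large subunit had a median of -0.44, and 8 were above their 0 min level. The 56 genes of the small subunit had one of -0.34, with 15 above 0 min, or 26.8% against 11.6% of all genes. *RPS8A* had 3.14 at 20 min and 4.81 at 0 min, a change of -0.61, *RPS24B* stood at -1.07 and *RPS10A* at 0.30. *RPL24B* had 2.89 at 20 min and 4.63 at 0 min, a change of -0.68, *RPP1A* stood at -1.23 and *RPL18B* at 0.21. Most of these genes exist as paralogs with similar sequence, and how reads were split between copies is not stated. Small subunit processome genes had a median of -0.35 and large subunit assembly factor genes one of -0.40, with *NOP1*, the fibrillarin gene, at 3.44 at 20 min and 6.13 at 0 min, a change of -0.83.

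Heat shock proteins and chaperones showed the widest spread of the 30 lists with 12 or more members, with an interquartile range of 0.68. *SIS1*, which encodes a co-chaperone of Hsp70, had 3.23 at 20 min and 6.88 at 0 min, a change of -1.09. The mitochondrial Hsp70 gene *SSC1* had 3.77 at 20 min and 6.84 at 0 min, a change of -0.86, while the cytosolic Hsp70 gene *SSA3* had 2.05 at 20 min and 1.63 at 0 min, a change of 0.33. The Hsp90 genes *HSC82* and *HSP82* were at -0.03 and -0.08, and how reads were split between these copies is not stated. Pheromone response genes had a median of -0.27 over 14 members, from the agglutinin gene *AGA1* at -1.02 to *KAR4* at 0.23.

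Of the 38 lists, 29 had a median within 0.1 of the median gene, and 19 lay above it and 19 below. Apart from ergosterol synthesis, given above, the main metabolic lists were among those within 0.1, with medians of -0.42 for glycolysis and ethanol fermentation, -0.41 for the tricarboxylic acid cycle, -0.43 for amino acid biosynthesis, -0.50 for purine and pyrimidine synthesis and -0.51 for the respiratory chain and ATP synthase. *FBA1*, the aldolase gene, had 2.78 at 20 min and 3.78 at 0 min, a change of -0.44. *ILV5* of branched-chain amino acid synthesis had 3.27 at 20 min and 4.77 at 0 min, a change of -0.54. *COX4* of cytochrome oxidase had 1.46 at 20 min and 1.22 at 0 min, a change of 0.26, and *ATP20* of ATP synthase had 0.201 at 20 min and 0.718 at 0 min, a change of -1.78. Genes of 1 list differed by more than most list medians did: interquartile ranges within the 30 lists ran from 0.32 to 0.68, beside 0.47 over all genes.

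**Figure D3:**
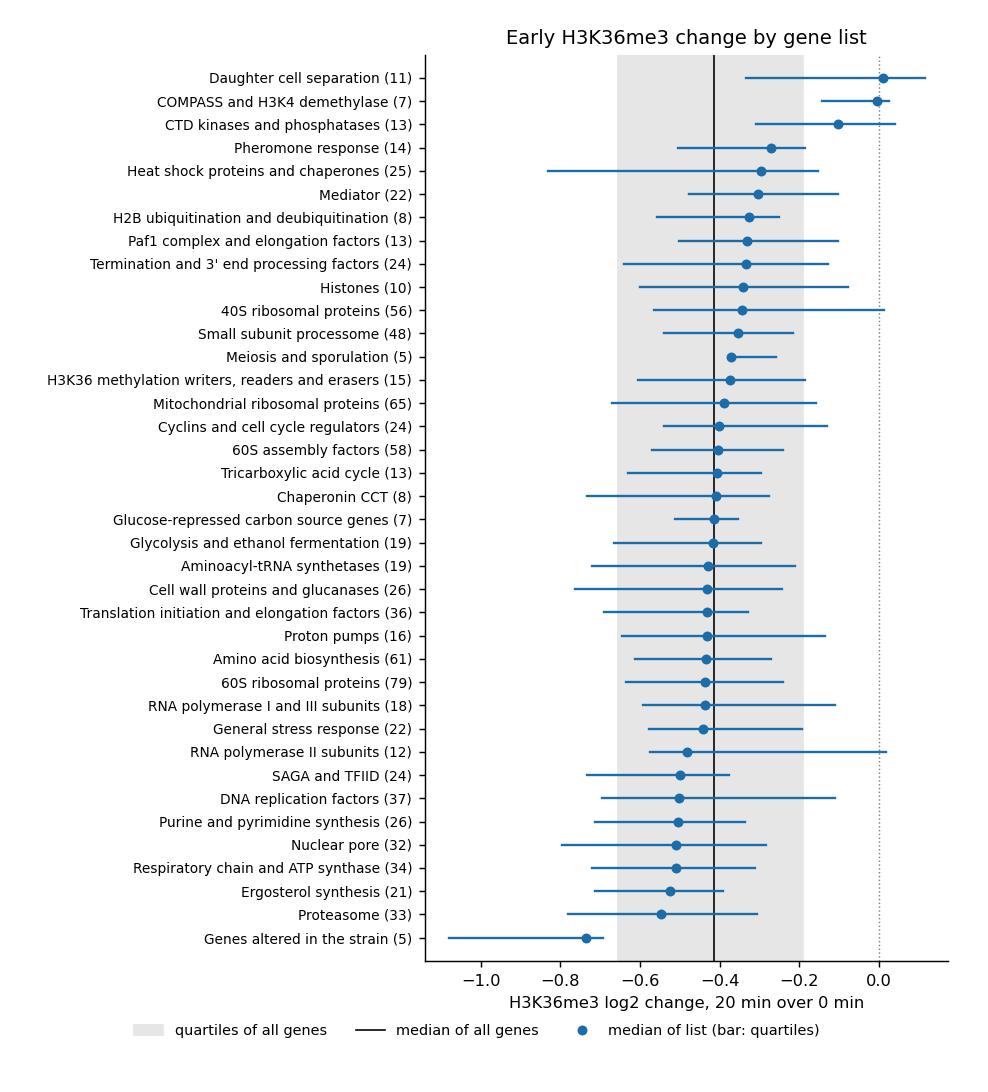
Points are the median H3K36me3 log2 change, 20 min over 0 min, of each gene list, bars run between the quartiles of its members, and the number of members past the filter is in parentheses. The vertical line and grey band are the median (-0.41) and quartiles of all 4861 genes. Daughter cell separation, COMPASS and the CTD kinases and phosphatases lie farthest to the right. The list named genes altered in the strain lies farthest to the left. It holds *FPR1*, *HIS3*, *TOR1* and both *RPL13* copies, though the label does not say which copy carries the anchor, and its median is the value of *RPL13B*.

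Whether strongly marked genes had a larger early step depended on the library used to rank them. Ranked by H3K36me3 at 0 min, the lowest 20% of genes had a median change of -0.23 and the highest 20% one of -0.61. That library is also the denominator of the change, so a chance high reading there lowers the change. Ranked by the mean of the 40 and 60 min libraries, which the change does not use, the medians were -0.41 in the lowest 20% and -0.46 in the highest 20%. With H3K4me3 at 0 min as the ranking they were -0.36 and -0.51, and the share of genes above their 0 min H3K36me3 level was 17.1% in the lowest 20% and 4.12% in the highest. Across 4861 genes the rho with the change was -0.34 for H3K36me3 at 0 min, -0.066 for the mean of 40 and 60 min, and -0.14 for H3K4me3 at 0 min. *NAB2* and *CCT6*, a chaperonin gene with 2.68 at 20 min and 6.17 at 0 min, are examples of high 0 min levels with large differences, and *HCM1*, with 2.94 at 20 min and 4.52 at 0 min, had a change of only -0.62.

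Gene length made little difference. The shortest 20% of genes, with a median length of 510 bases, had a median change of -0.43, and the longest 20%, with a median of 2796 bases, one of -0.41. The rho with length was 0.017 across 4775 genes with a length. *YBT1*, with 4986 bases, and *RPO26*, with 544, were both among the 12 highest changes. Short genes varied more, with an interquartile range of 0.51 in the shortest 20%, and so did weakly marked ones, with 0.57 in the lowest 20% by the mean of 40 and 60 min and 0.42 in the highest.

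**Figure D4:**
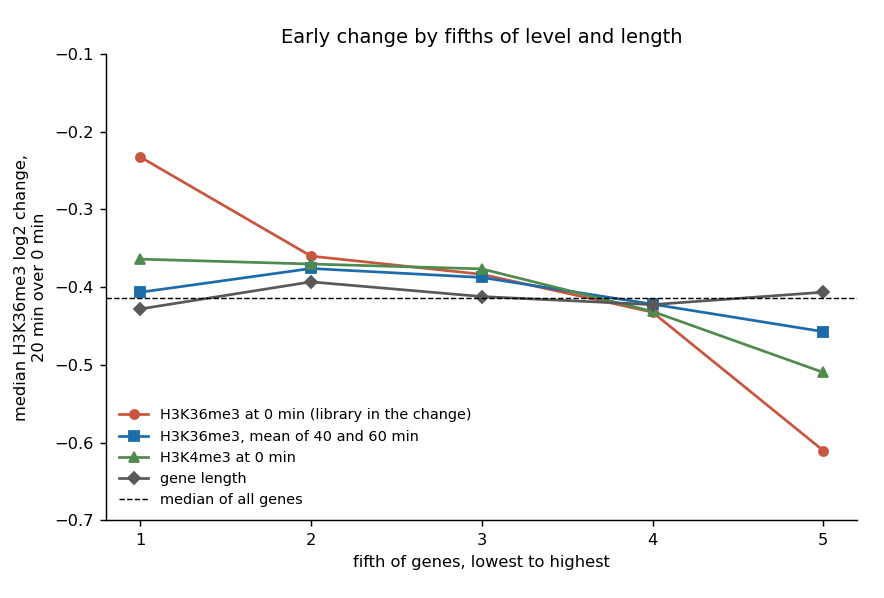
Median H3K36me3 log2 change, 20 min over 0 min, in 5 equal groups of genes ranked from lowest to highest by H3K36me3 at 0 min, by the mean H3K36me3 of 40 and 60 min, by H3K4me3 at 0 min or by gene length. The line for H3K36me3 at 0 min, which shares a library with the change, runs from -0.23 to -0.61, and that for gene length stays near the dashed median of -0.41.

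Differences by position in the genome were small. In 5 equal groups by distance to the first or last annotated gene, medians ran from -0.42 nearest to -0.40 farthest. Over the 5 groups by length they lay between -0.43 and -0.39. The groups by chromosome and by chromosome end are of unequal size, and some hold few genes. Medians by chromosome ran from -0.48 on chromosome III to -0.38 on chromosome XV. The 64 genes within 20 kb of the first or last annotated gene of a chromosome had a median of -0.34, beside -0.41 for the 4711 genes farther in. Genes whose upstream neighbour is divergent, so that both start from a shared region, had a median of -0.43, and those with a tandem neighbour one of -0.40. Across 1025 divergent pairs the changes of the 2 partners had a rho of 0.11, beside 0.049 for 1859 tandem pairs and 0.016 for 1104 convergent pairs. The 97 genes that overlap another annotated gene had a median of -0.49.

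As deposited, H3K4me3 differed far less than H3K36me3 over the same 20 min. Across genes the changes of both marks had almost no rank relation. The median H3K4me3 change was -0.06 over 4826 genes with an interquartile range of 0.19. As deposited, 67.4% of genes were below and 32.6% above their 0 min level. Under equal totals the median H3K36me3 change was 0.046, with an interquartile range of 0.47. The median gene at 0 min had 4.91 for H3K4me3 and 1.08 for H3K36me3. How much of either spread, or of the weak relation, is noise of single libraries was not tested. Across the 4657 genes past the filter for both marks, whose libraries are separate, the rho between the changes was -0.021. Where H3K36me3 was lower by 2-fold or more the median H3K4me3 change was -0.05, and where H3K36me3 was higher it was -0.07. The H3K4me3 level of *NAB2* was 5.76 at 20 min and 5.82 at 0 min, and that of *UPF3* was 6.46 at 20 min and 6.52 at 0 min. *GFD2* had an H3K4me3 level of 5.05 at 20 min and 6.67 at 0 min, an H3K4me3 change of -0.40, the lowest among the 24 genes at either end. *SER3* was the gene of the 24 with the highest H3K4me3 change, at 1.02, with 2.99 at 20 min and 1.45 at 0 min. That was also the highest of the 4826 genes. The lowest of the 4826, at -0.74, was *FPR1*, which also had the lowest H3K36me3 change.

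**Figure D5:**
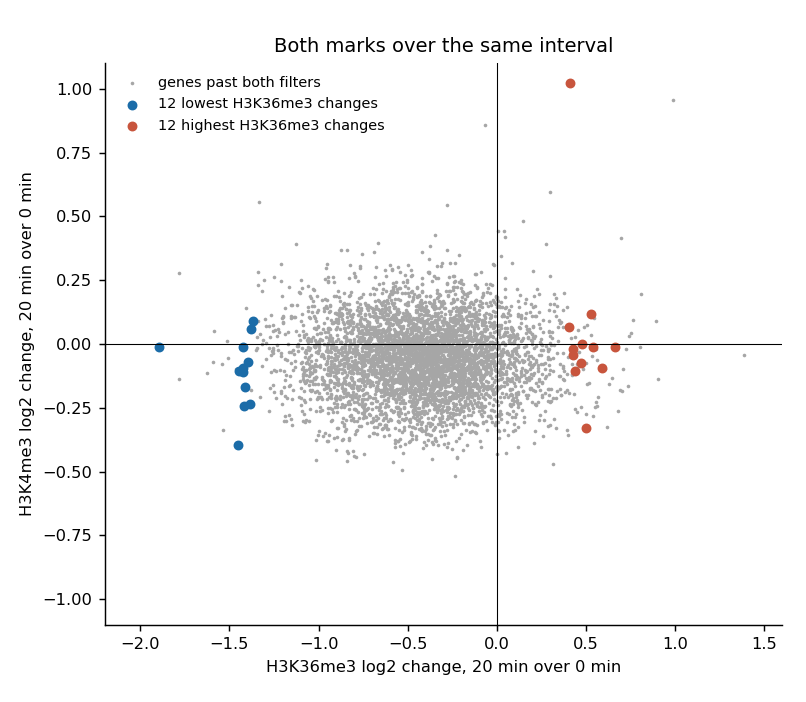
Log2 change from 0 to 20 min of H3K36me3 (x axis) and of H3K4me3 (y axis) per gene, with the 12 lowest and 12 highest H3K36me3 changes in blue and red; *FPR1* lies off the left edge and is not drawn. The cloud is wider along the H3K36me3 axis and shows no slope (rho -0.021).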

How the data were processed

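Immunoprecipitated DNA of H3K36me3 and H3K4me3 was sequenced at 0, 20, 40 and 60 min, with 8 such libraries and 8 of input listed. Each gene has 1 signal value per mark and time in the table the authors deposited. Bowtie2, SAMtools and bedtools with sacCer3 and ASM294v2 are named in the submitters' processing notes, and any division by input, length or spike-in is not given in the sources used here. The labels' protocols give a spike-in of 25% *S. pombe* cells. Columns name no library type and were taken as the immunoprecipitated groups. Of 5222 lines, 3 were blank and 1 held no values. Systematic names matched the R64 gene table for 5115 genes and not for 103, and the W or C in a name gave the strand. The values of YPR169W-A and YPR170W-B are identical.

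Changes are log2 of signal plus a pseudocount of 0.0108 (0.0491 for H3K4me3), 1% of the 0 min median. The filter asked for a mean over the 4 times of 25% of the median. Called means a change of -1 or less, or above 0. The text names the 12 lowest and 12 highest changes among genes at or above the median level, the strain genes, *ACT1*, *SET2* and, per list, the highest level and the lowest and highest change; other genes were chosen after their values were seen. Members and lists were chosen with earlier results of these data known. Python 3.11.15, pandas 2.3.3 and scipy 1.17.1 were used. The steps were tested on simulated levels.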

Additional observations from a re-analysis of the deposited data

How the results depend on the processing

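The early change rests on 1 library at each time, and what it means in absolute terms rests on their scale. Under equal totals the median change was 0.046 in place of -0.41, the share of genes below 0 min was 44.2%, and 13 genes were lower by 2-fold or more and 2712 higher. With the lowest 5% of genes held, these values were -0.16, 68.0%, 61 and 1555. With a pseudocount of 10% of the median, 151 genes in place of 280 were lower by 2-fold or more. The share below 0 min was 86.9% with no filter and 89.8% with the filter at 50% of the median. The gap between the highest and lowest 20% of genes by level was -0.05 when ranked by the mean of 40 and 60 min and -0.38 when ranked by the 0 min level. The cause of the scale differences was not tested. List medians relative to all genes moved by at most 0.14 over the 7 alternatives, by over 0.1 for histones (-0.07) and proton pumps (0.10) under the stricter filter. Among 132 named genes, 13 changed sign under equal totals and 6 with the lowest 5% held, and none under the others, of which the overlap filter kept 126 and the stricter filter 121 of these genes. No paired analysis was possible because each group has 1 library. The planned search for promoter motifs was not run, since no promoter sequences were used here. Depth is unknown, so counting error could not be given.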

Other observations

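Genes below the median level, outside the set from which the ends were named, held further large early changes. *MRP2*, which encodes a mitochondrial ribosomal protein, had a level of 0.347 at 20 min and 1.22 at 0 min, a change of -1.78. *SNC2*, which encodes a vesicle SNARE, had 0.601 at 20 min and 1.82 at 0 min, a change of -1.58. *PUT3*, which encodes the activator of proline use, had 0.236 at 20 min and 0.704 at 0 min, a change of -1.54. All 3 stayed near their 20 min level or below it at 40 min, with 0.371, 0.458 and 0.248. On the other side, *ARG1* of arginine synthesis had 0.390 at 20 min and 0.227 at 0 min, a change of 0.76, and *GLR1*, the glutathione reductase gene, had 0.595 at 20 min and 0.345 at 0 min, a change of 0.77. YMR013W-A, which had no match in the R64 table, had 0.129, 0.267, 0.888 and 0.761 at 0, 20, 40 and 60 min. These genes were chosen after their values were seen.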
